A study of Mus musculus with 4 samples.

Results

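Secreted Wnt ligands and the secreted proteins that bind them were followed through 4 single-cell libraries of cultured mouse adipose cells. The 10 genes were chosen by symbol from the 32285 genes counted: the secreted frizzled-related proteins *Sfrp1*, *Sfrp2*, *Sfrp4* and *Frzb*, the Dickkopf genes *Dkk2* and *Dkk3*, and the ligands *Wnt5a*, *Wnt5b*, *Wnt2* and *Wnt4*. De-differentiated fat (DFAT) cells had been grown by ceiling culture, in which floating adipocytes attach to the upper wall of a full flask, lose their lipid and become spindle-shaped. Adipocytes of the inguinal depot (iWAT, subcutaneous) gave the iWAT_DFAT library and those of the epididymal depot (eWAT, visceral) the eWAT_DFAT library. Stromal vascular cells of the same depots, which the labels call SVF cells, had been expanded in primary culture as adipose stem and progenitor cells (ASPCs) and gave the iWAT_ASPC and eWAT_ASPC libraries. All cells came from chow diet-fed male C57BL/6J mice and were sorted as live cells before loading; no genotype or drug set the groups apart, and the mice's age, the number pooled and the day of culture were not given in the sources used here. Each condition was 1 library, so no difference below was tested against replicates, and every interval is an exact 95% interval for counting error only.

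Barcodes with 5000 to 75000 unique molecular identifiers (UMIs), 200 to 7500 genes and under 10% mitochondrial UMIs were taken as cells, which gave 28262 cells: 7629 in iWAT_DFAT, 6464 in eWAT_DFAT, 7424 in iWAT_ASPC and 6745 in eWAT_ASPC. Libraries held 211396227 to 242282812 UMIs, and the median cell 22111 to 27617. Any pair of libraries shared 13 to 20 cell barcodes. At least 3 of 8 stromal markers, such as *Pdgfra*, *Col1a1* and *Dcn*, were found in 93.5% to 99.1% of the cells, and the summed level of the 8 was 2371 per 1000000 UMIs (CPM) in eWAT_DFAT against 6916 to 7499 CPM in the other 3 libraries.

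Wnt proteins are lipid-modified signals that bind Frizzled receptors. With the co-receptors *Lrp5* or *Lrp6* they stabilise β-catenin, which drives target genes with TCF/LEF factors; through the co-receptors *Ror1*, *Ror2* and *Ryk* they act without it. Secreted frizzled-related proteins resemble the ligand-binding part of Frizzled and can bind Wnts outside the cell, whereas *Dkk2* binds *Lrp5* and *Lrp6*. In adipose precursors, β-catenin-dependent signalling is known for restraining adipocyte formation, and *Wnt5a* is the classic ligand of the other branch.

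*Sfrp2* and *Dkk2* had the widest ranges among the members at 5 CPM or more. *Sfrp2* lies at chr3:83766321-83774316 and *Dkk2* at chr3:132085292-132180304, both on the plus strand (GRCm38, GENCODE M21). *Wnt5b*, a ligand higher in both DFAT libraries than in both ASPC libraries, lies on the minus strand at chr6:119432531-119544347. The 250 bases before a RefSeq transcript start (GRCm38.p6) were searched on both strands for the TCF/LEF cores CTTTGAA with its variant CTTTGAT, for the related CTTTGTA with its variant CTTTGTT, and for the TATA element TATAAA. RefSeq promoters were at hand for 6 of the 10 members. A TCF/LEF core was present in 14.8% and TATAAA in 12.4% of 32851 such windows, and among the members only 1 of the 3 *Wnt5b* starts held the former and only *Dkk2* the latter. The windows of the 3 genes are shown for comparison, 5′ to 3′ on the gene's strand, with matches in capitals. No window held more than 1 match, so none overlap.

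*Sfrp2*, chr3:83766071-83766320, plus strand: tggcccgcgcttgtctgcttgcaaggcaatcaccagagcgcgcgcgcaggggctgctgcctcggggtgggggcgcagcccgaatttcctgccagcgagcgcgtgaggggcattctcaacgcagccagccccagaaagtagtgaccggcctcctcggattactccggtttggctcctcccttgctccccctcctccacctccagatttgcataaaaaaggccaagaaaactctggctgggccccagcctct
*Dkk2*, chr3:132085042-132085291, plus strand: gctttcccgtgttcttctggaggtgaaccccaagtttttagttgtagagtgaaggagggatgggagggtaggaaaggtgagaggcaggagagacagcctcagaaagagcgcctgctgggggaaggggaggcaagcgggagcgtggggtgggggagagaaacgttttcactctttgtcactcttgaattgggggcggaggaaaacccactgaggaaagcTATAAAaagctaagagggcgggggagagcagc
*Wnt5b*, chr6:119449387-119449636, minus strand: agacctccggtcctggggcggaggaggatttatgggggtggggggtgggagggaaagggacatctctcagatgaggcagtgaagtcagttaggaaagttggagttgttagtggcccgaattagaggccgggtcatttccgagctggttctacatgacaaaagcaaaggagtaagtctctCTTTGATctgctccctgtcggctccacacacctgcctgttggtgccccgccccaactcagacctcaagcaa

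The *Dkk2* match began 32 bases before the start and the *Wnt5b* match, CTTTGAT, 71 bases before it; the *Sfrp2* window held neither. The *Wnt5b* window shown lies inside the gene. The window before the outermost *Wnt5b* start, chr6:119544348-119544597, held no match. A match describes letters in the window and is not a binding site.

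Among the frizzled-related genes, *Sfrp1* was present in all 4 cultures and *Sfrp2* was chiefly a transcript of inguinal DFAT cells. The level of *Sfrp1*, at chr8:23411502-23449632, was 91.4 CPM (90.0 to 92.8) in iWAT_DFAT, 24.7 (24.0 to 25.4) in eWAT_DFAT, 240.2 (238.0 to 242.3) in iWAT_ASPC and 373.9 (371.3 to 376.6) in eWAT_ASPC. Both ASPC libraries thus stood above both DFAT libraries, and the depot order was inverted between the cell sources. *Sfrp1* was 3.70-fold higher (3.59 to 3.83) in iWAT_DFAT than in eWAT_DFAT, whereas in ASPCs the log2 ratio of iWAT over eWAT was -0.64 (-0.66 to -0.62).

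*Sfrp2* reached 148.4 CPM (146.6 to 150.2) in iWAT_DFAT, 23.2 (22.6 to 23.9) in eWAT_ASPC, 7.28 (6.90 to 7.68) in eWAT_DFAT and 1.93 (1.74 to 2.13) in iWAT_ASPC. The 2 inguinal libraries were the highest and the lowest of the 4. In iWAT_DFAT it was 20.4-fold higher (19.3 to 21.5) than in eWAT_DFAT and 76.8-fold higher (69.5 to 85.2) than in iWAT_ASPC, while the epididymal DFAT level was below the epididymal ASPC level by a log2 ratio of -1.67 (-1.76 to -1.59). That last difference rested on cells with mesothelial markers and is taken up below.

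*Frzb* and *Sfrp4* were scarce. *Frzb* (chr2:80411970-80447625), the founding member of the family, had 5.08 CPM (4.76 to 5.42) in eWAT_DFAT, 2.92 in eWAT_ASPC, 1.06 in iWAT_ASPC and 0.408 in iWAT_DFAT, so that both epididymal libraries were above both inguinal ones. *Sfrp4* (chr13:19623104-19632994) had 1.45 CPM (1.28 to 1.63) in iWAT_DFAT, from 266 UMIs, and between 0.106 and 0.196 CPM, from 21 to 39 UMIs, elsewhere. It stayed under the minimum of 5 CPM in every library, and outside iWAT_DFAT the level in iWAT_ASPC was above that in eWAT_ASPC by a log2 ratio of 0.88 (0.08 to 1.72), while the epididymal libraries did not differ beyond counting error.

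*Dkk2* was a transcript of the inguinal cultures, and mostly of the inguinal ASPCs. It had 62.0 CPM (60.9 to 63.1) in iWAT_ASPC, 7.47 (7.08 to 7.88) in iWAT_DFAT, 1.21 (1.05 to 1.38) in eWAT_DFAT and 0.668 (0.559 to 0.792) in eWAT_ASPC. *Dkk2* was thus 92.7-fold higher (78.1 to 110.9) in inguinal than in epididymal ASPCs and 6.19-fold higher (5.37 to 7.16) in inguinal than in epididymal DFAT cells. These folds are ratios of measured levels. Both epididymal levels were within the interval of that in the free RNA of their library, read from droplets that hold no cell. The free RNA level was 0.986 CPM (0.397 to 2.03) in eWAT_ASPC and 0.540 (0.147 to 1.38) in eWAT_DFAT. *Frzb*, *Dkk3*, *Wnt5a*, *Wnt5b* and *Wnt2* were within their free RNA interval in every library. *Sfrp1* was above it in every library, and *Sfrp2*, *Sfrp4* and *Wnt4* were within it in some only. The match is thus not particular to *Dkk2*, and the part of free RNA in its epididymal UMIs was not tested. Cells with endothelial markers held 32.6% of the *Dkk2* UMIs in eWAT_DFAT and 34.1% in eWAT_ASPC, as given below. Within the inguinal depot the DFAT level was below the ASPC level, with a log2 ratio of -3.05 (-3.13 to -2.97).

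*Dkk3* (chr7:112116017-112159057), a Dickkopf relative that does not bind *Lrp5* and *Lrp6* in the manner of *Dkk2*, had 13.3 CPM (12.8 to 13.8) in iWAT_ASPC, 5.55 (5.23 to 5.89) in eWAT_ASPC, 4.32 (4.02 to 4.63) in iWAT_DFAT and 2.16 (1.95 to 2.38) in eWAT_DFAT. The inguinal library was the higher in either cell source, and the ASPC library the higher in either depot. The ratio between the DFAT libraries fell just short of the 2-fold mark at 1.998, with both levels under 5 CPM.

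Of the ligands, *Wnt5a* was higher in the ASPCs, in eWAT only slightly, and *Wnt5b* and *Wnt2* were higher in the DFAT cells. *Wnt5a* (chr14:28504750-28527448) had 49.3 CPM (48.3 to 50.3) in iWAT_ASPC, 19.3 (18.7 to 19.9) in eWAT_ASPC, 15.7 (15.1 to 16.3) in eWAT_DFAT and 8.14 (7.73 to 8.56) in iWAT_DFAT. Inguinal ASPCs were 2.56-fold above epididymal ASPCs, whereas the DFAT libraries had the other order, with a log2 ratio of -0.95 (-1.04 to -0.86). In eWAT the log2 ratio of DFAT cells over ASPCs was -0.30 (-0.37 to -0.23). Over the alternative processings that ratio ran from -0.45 to -0.09. *Wnt5b*, the close paralog of *Wnt5a*, had 14.7 CPM (14.2 to 15.3) in iWAT_DFAT, 6.47 (6.11 to 6.85) in eWAT_DFAT, 2.02 (1.83 to 2.23) in eWAT_ASPC and 1.72 (1.54 to 1.91) in iWAT_ASPC.

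Both DFAT libraries stood above both ASPC libraries in *Wnt5b*, by 8.58-fold (7.67 to 9.63) in iWAT and 3.20-fold (2.86 to 3.60) in eWAT. *Wnt2* (chr6:17988940-18030585), a ligand of the β-catenin branch, had 8.31 CPM (7.90 to 8.74) in eWAT_DFAT, 4.53 (4.23 to 4.85) in iWAT_DFAT, 3.02 (2.79 to 3.28) in iWAT_ASPC and 1.21 (1.07 to 1.38) in eWAT_ASPC, again with the DFAT libraries above the ASPC libraries. *Wnt4* (chr4:137277489-137299726), known from kidney and female tract development, had 9.94 CPM (9.51 to 10.4) in eWAT_ASPC, 5.52 (5.18 to 5.87) in eWAT_DFAT, 2.94 (2.70 to 3.20) in iWAT_DFAT and 2.88 (2.65 to 3.12) in iWAT_ASPC. For *Wnt4* the 2 inguinal libraries did not differ beyond counting error, with a log2 ratio of 0.03 (-0.14 to 0.20).

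**Figure D1:**
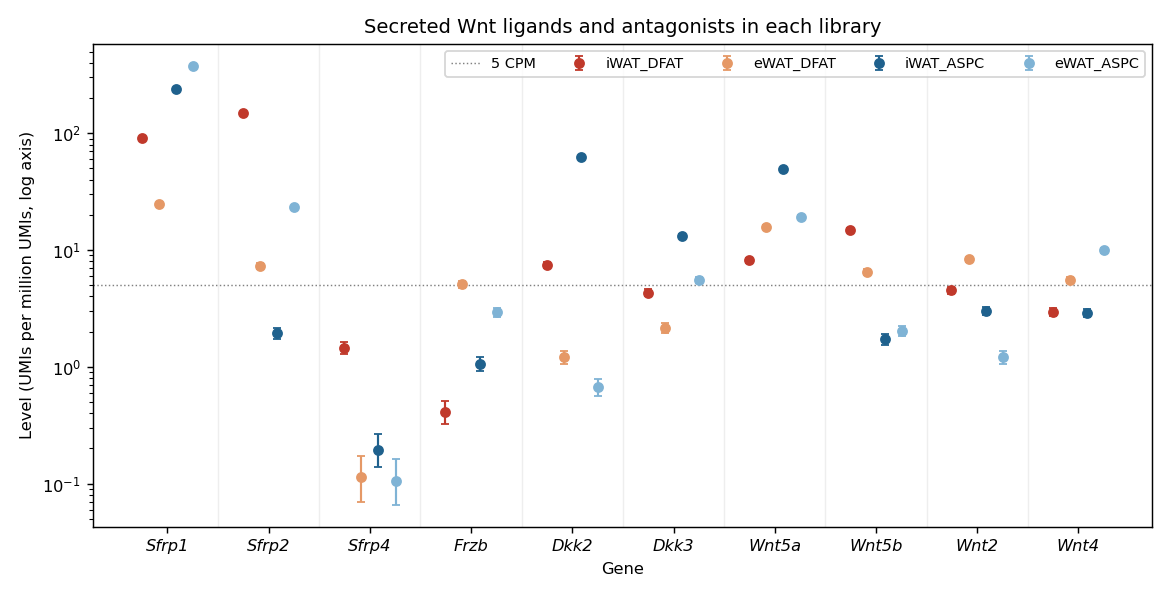
Level of each gene in each library, in CPM on a log axis. Points are libraries, bars the exact 95% Poisson intervals and the dotted line the minimum of 5 CPM; *Sfrp1* is highest in the ASPC libraries, *Sfrp2* in iWAT_DFAT and *Dkk2* and *Wnt5a* in iWAT_ASPC.

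Droplets with 1 to 100 UMIs, which hold free RNA and no cell, also carried these transcripts. *Sfrp2* stood at 160.4 CPM in the free RNA of iWAT_DFAT against 2.66 in that of iWAT_ASPC, and *Dkk2* at 45.8 CPM in iWAT_ASPC against 0.54 to 5.24 in the other 3. In iWAT_DFAT both *Sfrp2* and *Sfrp4* were higher in the free RNA than in the cells. *Sfrp2* had 160.4 CPM (151.3 to 169.9) in free RNA against 148.4 (146.6 to 150.2) in cells. *Sfrp4* had 4.14 CPM (2.79 to 5.91) against 1.45 (1.28 to 1.63). A low share of cells with a UMI may therefore be free RNA, and shares are set beside other cell types below.

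The depot comparison asks which genes differ between inguinal and epididymal cells. In DFAT cells, 8 members had 5 CPM or more in the higher library. *Sfrp1*, *Sfrp2*, *Dkk2* and *Wnt5b* were at least 2-fold higher in iWAT_DFAT and *Frzb*, by a log2 ratio of -3.64 (-4.00 to -3.30), was lower. The *Wnt5b* ratio was under 2-fold after correction for gene length (log2 ratio 0.95), and *Frzb* fell under 5 CPM, to 4.83, by the mean of CPM per cell. Over all 10384 genes at that level, 8.29% were at least 2-fold higher and 3.95% lower, and the median log2 ratio was 0.09 against 0.16 for the 8 members. *Wnt5a*, *Wnt2* and *Wnt4* lay between -0.95 and -0.88, just inside the 2-fold mark. After correction for gene length *Wnt5a* and *Wnt2* passed it (log2 ratios -1.01 and -1.02), and in stromal cells past no marker gate of another cell type *Wnt4* was at 3.90 CPM in eWAT_DFAT, with a log2 ratio of -0.37.

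In ASPCs, 6 members had 5 CPM or more: *Dkk2*, *Dkk3* and *Wnt5a* were at least 2-fold higher in iWAT_ASPC, and *Sfrp2* and *Wnt4* lower. Of 10135 genes, 2.94% were higher and 3.94% lower past that mark, with a median log2 ratio of 0.05 against 0.31 for the members. With that minimum of 5 CPM, *Dkk2* was the member past 2-fold in the same direction in both depot comparisons, and *Sfrp2* was past it in opposite directions. *Frzb*, under 5 CPM in both ASPC libraries, was lower in iWAT_ASPC as well, with a log2 ratio of -1.46 (-1.69 to -1.23).

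The cell source comparison asks how DFAT cells differ from the ASPCs of their own depot. In iWAT, *Sfrp2* and *Wnt5b* were at least 2-fold higher in DFAT cells, and *Sfrp1*, *Dkk2*, *Dkk3* and *Wnt5a* lower, which takes in all 6 members at 5 CPM or more. The shares over 10426 genes were 9.91% higher and 5.18% lower, and the median log2 ratio was -1.51 for the members against 0.09 for all genes. *Wnt5a* had a log2 ratio of -2.60 (-2.68 to -2.52).

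In eWAT, *Wnt5b* and *Wnt2* were at least 2-fold higher in DFAT cells and *Sfrp1*, *Sfrp2* and *Dkk3* lower among 8 members, against 6.44% higher and 6.67% lower of 10298 genes. In stromal cells past no marker gate of another cell type, described with those cell types, *Sfrp2* was no longer past 2-fold (log2 ratio -0.03) and *Wnt4* passed it (-1.18). *Sfrp1* had the largest difference, a log2 ratio of -3.92 (-3.97 to -3.88), and *Wnt2* was 6.84-fold higher (5.97 to 7.87). The median log2 ratio was -0.57 for the members and 0.07 for all genes. Each library entered 2 of these comparisons, so they are not independent of each other, and cultures cannot be told apart from conditions with 1 library each.

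**Figure D2:**
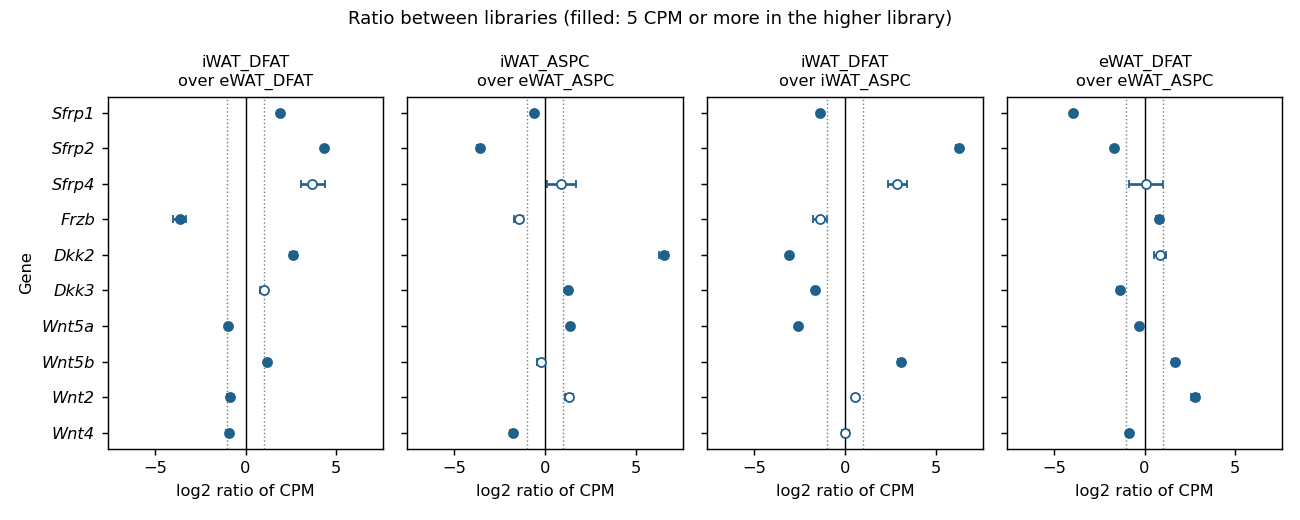
Log2 ratio of CPM for each gene in the 4 comparisons, with exact conditional binomial 95% intervals. Filled points have 5 CPM or more in the higher library and dotted lines mark 2-fold; *Sfrp2* runs from 6.26 (iWAT_DFAT over iWAT_ASPC) to -3.59 (iWAT_ASPC over eWAT_ASPC) and *Dkk2* reaches 6.53 between the ASPC libraries.

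The members differed in how they were spread over cells. Had every iWAT_ASPC cell carried *Dkk2* at the level of the library, 76.5% of cells would have held a UMI of it, and 20.4% (19.5% to 21.3%) did. The 10% of cells with the highest counts held 91.4% of the *Dkk2* UMIs, and 1 cell held 200. *Sfrp2* was found in 12.6% (11.9% to 13.5%) of eWAT_ASPC cells where an even spread gives 47.3%, and in 65.6% (64.5% to 66.7%) of iWAT_DFAT cells where it gives 94.3%.

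*Sfrp1* was in 81.5% of eWAT_ASPC, 66.7% of iWAT_ASPC, 51.5% of iWAT_DFAT and 25.3% of eWAT_DFAT cells, a measured share that was 0.521 to 0.818 times the even-spread share. *Wnt5a* was close to even, with 59.5% (58.4% to 60.6%) of iWAT_ASPC cells measured against 69.4%. *Wnt5b*, *Wnt2*, *Dkk3* and *Frzb* reached 0.725 to 0.952 times their even-spread shares.

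After each cell was thinned to 5000 UMIs, *Dkk2* was found in 10.5% (9.83% to 11.2%) of iWAT_ASPC cells and *Sfrp2* in 38.7% (37.6% to 39.8%) of iWAT_DFAT cells. As a background, cells of eWAT_ASPC with mesothelial markers (described with the other cell types), at a median of 21767 UMIs against 27617 in the library, had *Dkk2* in 0 of 496 thinned cells (upper limit 0.741%). The thinned share of *Dkk2* in all eWAT_ASPC cells, 0.430%, was under that limit and cannot be told from background by this share. In eWAT_DFAT the share was 0.541%. The endothelial-gate cells of both epididymal libraries did carry *Dkk2*, as given below. For *Dkk2* in eWAT_DFAT and in iWAT_ASPC no background from the same library is given. *Sfrp2* was in 0.862% of thinned iWAT_ASPC cells and in 0 of 56 cells of that library with endothelial markers, at a median of 15911.5 UMIs against 24930 in the library, where the upper limit of 6.38% does not separate the shares. In eWAT_ASPC the endothelial-gate cells, at a median of 14856 UMIs, had *Sfrp2* in 0 of 145 thinned cells (upper limit 2.51%), against 6.76% of all cells.

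*Sfrp1* had thinned shares of 58.3% in eWAT_ASPC, 41.4% in iWAT_ASPC and 8.94% in eWAT_DFAT, against 15.9% (10.3% to 22.8%), 23.2% (13.0% to 36.4%) and 0.680% (0.0172% to 3.73%) in the endothelial-gate cells of these libraries. *Wnt5a* had 8.50%, 19.5% and 6.79% in the same libraries, against 0.690% and 0 of 56 cells (upper limit 6.38%) in the endothelial-gate cells of eWAT_ASPC and iWAT_ASPC and 0.680% in those of eWAT_DFAT, whose median depth was 11794 UMIs. In iWAT_DFAT the cells with adipocyte markers, at a median of 25691 UMIs, had *Sfrp2* in 8.75% (5.62% to 12.8%) and *Sfrp1* in 7.98% (5.01% to 11.9%) after thinning, below the 38.7% and 27.3% of the library. *Wnt5a* there, at 3.71% of the library, was within the interval of its share in the adipocyte-gate cells (2.28%, 0.842% to 4.90%). These cells are not a set that should lack the gene, so no background for *Wnt5a* is given in iWAT_DFAT.

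**Figure D3:**
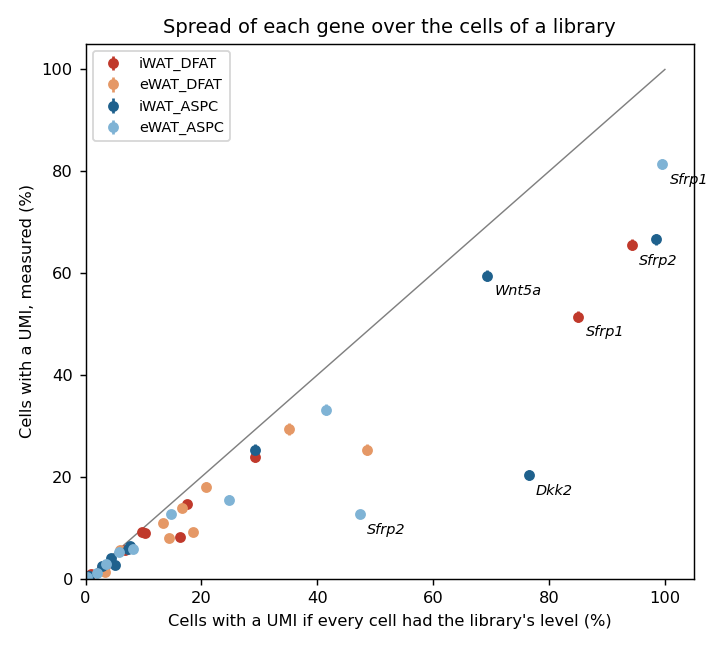
Share of cells with a UMI of each gene in each library (vertical axis, %, with exact binomial 95% intervals) against the share if all cells of the library had the same level (horizontal axis, %). The line marks equality; *Dkk2* in iWAT_ASPC and *Sfrp2* in eWAT_ASPC lie farthest below it, and *Wnt5a* lies near it.

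Part of this unevenness followed the few cells of other types that the cultures held. A cell was put in the gate of a type when it had UMIs of at least 3 markers of it; a gate is not a cluster and can take in doublets. Cells past the mesothelial gate (*Msln*, *Upk3b*, *Lrrn4* and others, the lining of visceral fat) numbered 496 in eWAT_ASPC, 58 in eWAT_DFAT, 1 in iWAT_ASPC and 0 in iWAT_DFAT. The summed level of the 6 mesothelial markers was 87.4, 10.8, 71.3 and 5.83 CPM in these libraries, and 5 or 6 of the 6 had a UMI in each. In iWAT_ASPC, where 1 cell passed the gate, 1 of the 6 markers was found in most cells, unlike in eWAT_ASPC.

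The 496 cells, 7.35% of eWAT_ASPC, carried *Sfrp2* at 250.2 CPM (241.5 to 259.0) and held 69.2% of the library's *Sfrp2* UMIs. In cells that had 3 or more stromal markers and passed no other gate, the *Sfrp2* level was 7.77 CPM (7.36 to 8.18) in eWAT_ASPC and 7.58 (7.17 to 8.01) in eWAT_DFAT. The epididymal difference between DFAT cells and ASPCs was thus absent among these stromal cells, with a log2 ratio of -0.03, and the ASPC depot ratio of *Sfrp2* shrank from -3.59 to -1.98. The inguinal DFAT level in such cells, 154.2 CPM, was like that of the whole library.

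The same gate held *Wnt4* and *Wnt5a*. The 58 mesothelial-gate cells of eWAT_DFAT, 0.897% of that library, carried *Wnt4* at 241.4 CPM (216.8 to 268.0) and held 34.3% of its *Wnt4* UMIs, *Wnt5a* at 92.1 CPM (77.2 to 109.1) and *Wnt2* at 31.6 CPM. In eWAT_ASPC the mesothelial-gate cells had *Wnt4* at 26.1 CPM (23.3 to 29.0) and *Wnt5a* at 57.5 (53.4 to 61.8). They held 19.2% of that library's *Wnt5a* UMIs. No *Dkk2* UMI was seen in either set, which for the 496 cells allows a share with a UMI at this depth of up to 0.741% and sets no limit on cells expressing the gene. Without these and the other gated cells, the *Wnt4* level of eWAT_DFAT was 3.90 CPM and its log2 ratio to eWAT_ASPC went from -0.85 to -1.18.

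Outside the inguinal cultures a large part of the *Dkk2* UMIs came from cells with endothelial markers. Cells past the endothelial gate (*Pecam1*, *Cdh5*, *Tie1* and others) had *Dkk2* at 48.4 CPM (36.1 to 63.4) in 56 cells of iWAT_ASPC, 30.8 (24.1 to 38.7) in 147 of eWAT_DFAT, 16.4 (12.0 to 21.9) in 145 of eWAT_ASPC and 23.6 (12.2 to 41.2) in 22 of iWAT_DFAT. They were at most 2.27% of a library yet held 32.6% and 34.1% of the *Dkk2* UMIs of eWAT_DFAT and eWAT_ASPC. Among stromal cells past no other gate *Dkk2* was 62.4 CPM in iWAT_ASPC, 7.27 in iWAT_DFAT, 0.879 in eWAT_DFAT and 0.483 in eWAT_ASPC.

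Cells with 3 or more adipocyte markers, 263 in iWAT_DFAT and 397 in eWAT_DFAT, had lower levels of *Sfrp1* and *Sfrp2* than their libraries: *Sfrp1* at 26.7 (23.1 to 30.7) and *Sfrp2* at 30.3 CPM (26.4 to 34.6) in iWAT_DFAT, and 4.78 CPM (3.61 to 6.20) of each in eWAT_DFAT. *Frzb*, at 4.86 CPM (3.68 to 6.30) in the adipocyte-gate cells of eWAT_DFAT, was within counting error of the 5.08 CPM of its library. *Wnt5b* had 11.8 CPM (9.89 to 13.9) in the adipocyte-gate cells of eWAT_DFAT against 6.08 CPM in its stromal cells, and in iWAT_DFAT 17.6 (14.6 to 20.9) against 14.7 CPM, within counting error. Of the 6 adipocyte markers, 1 was found in most cells of either DFAT library. The summed level of the 6 was 354.3 CPM in iWAT_DFAT and 2213 CPM in eWAT_DFAT.

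**Figure D4:**
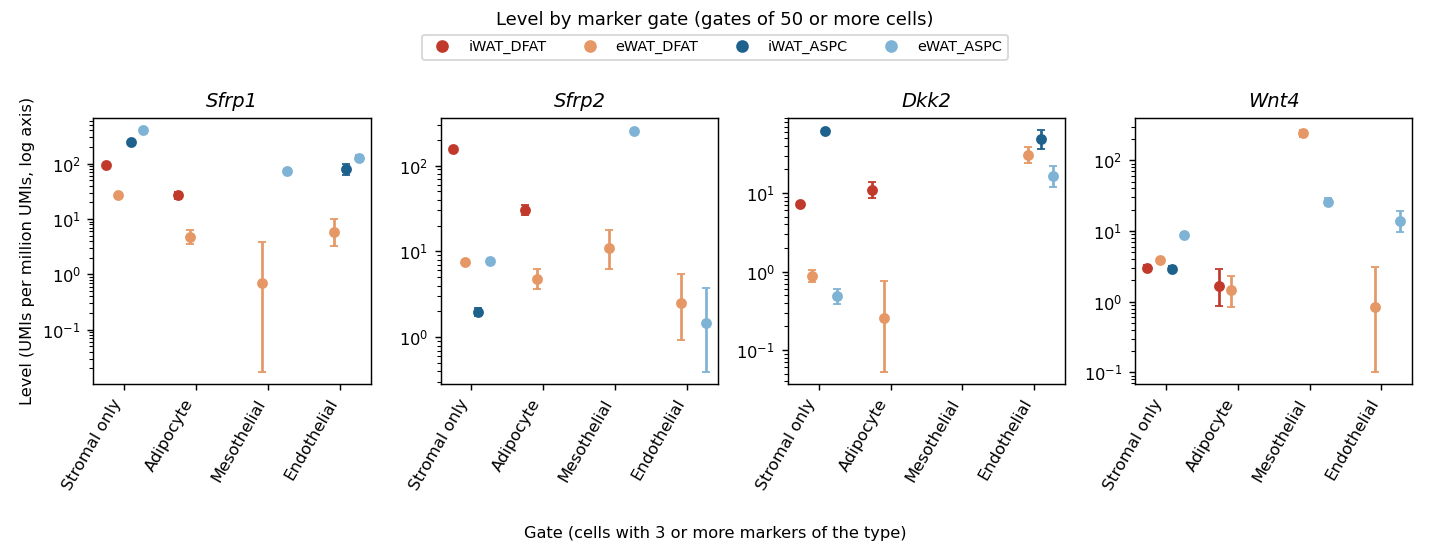
Level of *Sfrp1*, *Sfrp2*, *Dkk2* and *Wnt4* (CPM, log axis) in stromal cells past no other gate and in cells past the adipocyte, mesothelial and endothelial gates. Points are libraries with 50 or more cells in the gate and bars are exact 95% Poisson intervals; gates without a UMI are not drawn, and the mesothelial gate stands highest for *Sfrp2* in eWAT_ASPC (250.2 CPM) and for *Wnt4* in eWAT_DFAT (241.4 CPM).

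Within a library the members also varied with the state of the cells. Cells were ranked by the share of their UMIs from 12 proliferation genes, 7 contractile genes or 8 inflammatory genes, and the highest and lowest 25% of each ranking were compared; these are ranges of a score and not cell types. By the contractile score (*Acta2*, *Tagln*, *Cnn1* and others), *Sfrp2* was lower in the high cells of all 4 libraries. In iWAT_ASPC it was 0.530 CPM in the high and 4.88 CPM in the low cells, a log2 ratio of -3.20 (-3.82 to -2.64), and in eWAT_DFAT the log2 ratio was -2.15 (-2.43 to -1.87). In eWAT_ASPC the log2 ratio was -5.08, and -3.52 among stromal cells past no other gate. In iWAT_DFAT, where *Sfrp2* was highest, it was -0.49 (-0.54 to -0.44).

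*Dkk2* followed the same score in iWAT_ASPC, at 17.1 CPM in the high and 125.1 CPM in the low cells (log2 ratio -2.87, -2.98 to -2.77). In each library the contractile-high cells also had less *Wnt5b*, by log2 ratios from -1.63 to -0.82. *Wnt5a* differed by cell source: its log2 ratio was 0.91 (0.69 to 1.12) in iWAT_DFAT and 0.90 (0.74 to 1.06) in eWAT_DFAT, and -0.33 (-0.42 to -0.25) in iWAT_ASPC and -0.93 (-1.06 to -0.80) in eWAT_ASPC, where it was -0.25 (-0.40 to -0.10) among stromal cells past no other gate. The contractile lists themselves stood at very unlike levels, 3286 CPM in the high cells of iWAT_DFAT and 40968 CPM in those of eWAT_ASPC.

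By the inflammatory score (*Saa3*, *Cxcl5*, *Ccl2* and others), both frizzled-related genes were higher in the high cells of iWAT_DFAT: *Sfrp2* at 267.5 against 66.9 CPM, a log2 ratio of 2.00 (1.94 to 2.06), and *Sfrp1* at 151.4 against 48.4 CPM, a log2 ratio of 1.65 (1.58 to 1.71). The high cells had the lower depth, with a median of 18632 UMIs against 24975. For *Sfrp1* the log2 ratios in the other libraries were 0.14 to 0.61. *Sfrp2* had a log2 ratio of 3.92 in eWAT_ASPC, which was 1.57 among stromal cells past no other gate, 1.01 (0.80 to 1.23) in eWAT_DFAT and 0.33 (-0.10 to 0.77) in iWAT_ASPC. By the proliferation score *Sfrp1* had log2 ratios of -0.73 to -0.62 in 3 libraries and -0.10 in eWAT_DFAT. *Sfrp2* had a log2 ratio of -1.58 (-1.71 to -1.46) in eWAT_ASPC, -1.20 among stromal cells past no other gate, and -0.69 to -0.49 in the other libraries, and *Wnt5a* stayed between -0.47 and 0.24.

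**Figure D5:**
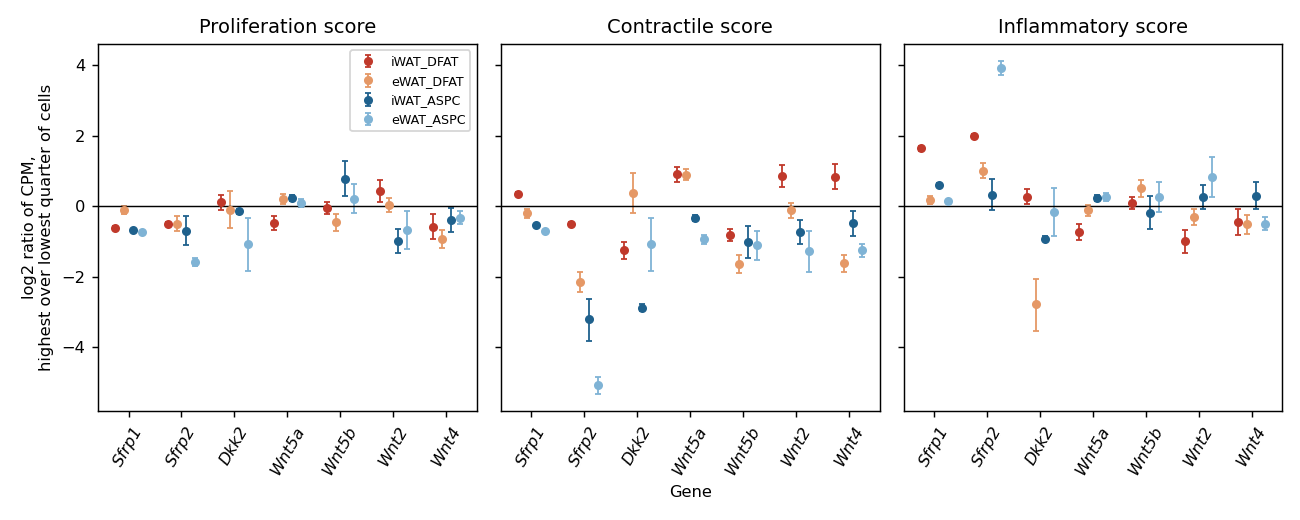
Log2 ratio of CPM between the 25% of cells with the highest and the lowest proliferation, contractile or inflammatory score in each library, for 7 genes, with exact conditional binomial 95% intervals. *Sfrp2* lies below 0 for the contractile score in all 4 libraries, and at 2.00 in iWAT_DFAT and 3.92 in eWAT_ASPC for the inflammatory score.

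Pairs of members that each had a UMI in at least 10% of thinned cells were counted together. In iWAT_DFAT, 15.7% of cells held both *Sfrp1* and *Sfrp2*, against 10.6% from the product of their shares. In iWAT_ASPC, *Sfrp1* and *Dkk2* met in 3.34% of cells against 4.35%, *Sfrp1* and *Wnt5a* in 9.24% against 8.05%, and *Dkk2* and *Wnt5a* in 2.02% against 2.05%. These are shares of cells of 1 library each, each cell counted at 5000 UMIs.

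Stromal cells of iWAT_ASPC with 3 or more *Dkk2* UMIs (774 cells, 92.5% of the *Dkk2* UMIs of such stromal cells) were set beside those with none (5597 cells). The genes with the largest differences, named after their values were seen, were *Lgr5*, a receptor for R-spondins that amplify Wnt signals, at 165.9 against 21.5 CPM, *Il1rl1*, the receptor of interleukin 33, at 70.7 against 14.5, and C1qtnf3 at 60.5 against 12.6. Lower in the *Dkk2* cells were the chemokine gene *Cxcl14*, at 194.0 against 967.5 CPM, *Igfbp4* at 69.7 against 305.7 and the smooth muscle myosin gene *Myh11* at 14.8 against 64.5. *Sfrp1* was lower as well, at 137.7 against 264.1 CPM, whereas *Dkk3* was nearly level at 13.7 against 14.0.

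The *Dkk2* cells had the greater median depth, 28500 against 24839 UMIs. Over all iWAT_ASPC cells, 33.0% of those with a *Dkk2* UMI and 12.1% of those without one had an *Lgr5* UMI. In iWAT_DFAT, where 8.22% of cells had *Dkk2*, 0.616% had *Lgr5*. There the share with *Lgr5* was 0.478% of cells with a *Dkk2* UMI, from 3 cells, and 0.628% of those without one.

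In the same way, 3008 iWAT_DFAT cells with 3 or more *Sfrp2* UMIs were set beside 2349 with none. Higher in the former were *Chl1*, a cell adhesion gene, at 151.7 against 37.3 CPM, *Sfrp1* at 150.7 against 42.0, the acute phase protease inhibitor *Serpina3n* at 127.6 against 36.1 and *Il33*, the interleukin 33 gene, at 34.0 against 9.35. Lower were the steroid enzyme gene *Hsd3b6*, at 1.58 against 21.9 CPM, *Il11*, an interleukin 6 family cytokine, at 4.06 against 30.8 and the proliferin gene *Prl2c3* at 37.8 against 130.7. The proliferin genes are near-identical copies, so that their counts are uncertain. Median depths were 21304 and 23304 UMIs.

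Over the 4 libraries, 6971 genes at 20 CPM or more in their highest library were ranked by how closely their pattern of log2(CPM + 1) followed that of a member, as the root mean square difference after centring. For *Sfrp1* the nearest were *Adamts5*, a proteoglycan-cleaving protease (0.30), and *Fam20a* (0.45). For *Sfrp2* they were *Steap4*, a metalloreductase (0.75), and *Cpxm1* (0.81), for *Dkk2* the transcription factor gene *Prdm6* (0.40) and *Samd5* (0.67), and for *Wnt5a* *Mtus1* (0.19) and the laminin chain gene *Lama2* (0.19). *Prdm6*, for instance, had 27.9 CPM in iWAT_ASPC, 2.13 in iWAT_DFAT and 0.280 and 0.314 CPM in eWAT_DFAT and eWAT_ASPC. The ranking rests on 4 points that share no replicate.

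Of 80 other genes of the pathway, 41 to 43 had 5 CPM or more in a comparison. Among them 6 were at least 2-fold higher and 1 lower in iWAT_DFAT than in eWAT_DFAT, 3 higher and 4 lower in iWAT_ASPC than in eWAT_ASPC, 2 higher and 9 lower in iWAT_DFAT than in iWAT_ASPC, and 1 higher and 11 lower in eWAT_DFAT than in eWAT_ASPC. Over all genes at that level the shares higher and lower were 8.29% and 3.95%, 2.94% and 3.94%, 9.91% and 5.18%, and 6.44% and 6.67% in these comparisons. The median log2 ratios of the pathway genes were 0.33, 0.21, -0.03 and -0.15, beside 0.09, 0.05, 0.09 and 0.07 over all genes. Cells past other gates were not set apart for the pathway genes. The part of the mesothelial-gate cells, 7.35% of eWAT_ASPC, in the pathway levels was not tested.

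Other ligands were scarce: 14 of the 15 stayed under 5 CPM in every library. The exception was *Wnt16*, at 8.28 CPM in iWAT_DFAT, 0.933 in iWAT_ASPC, 0.511 in eWAT_ASPC and 0.0808 in eWAT_DFAT. *Wls*, the carrier that all Wnt proteins need for secretion, had 221.9 CPM in iWAT_ASPC, 196.3 in eWAT_ASPC, 98.1 in iWAT_DFAT and 89.4 in eWAT_DFAT and was past 2-fold lower in DFAT cells of both depots.

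R-spondins, secreted amplifiers of the pathway, were highest in the eWAT_ASPC library. *Rspo1* had 25.7 CPM there and 0.43 to 1.77 in the other 3 libraries, and *Rspo3* had 51.6 against 10.8 to 19.0 CPM. Of their receptors, *Lgr5* had 41.8 CPM in iWAT_ASPC and 0.081 to 0.397 elsewhere, and *Lgr4* was just past 2-fold higher in the inguinal library of either source, at 47.8 against 23.8 CPM in DFAT cells and 27.1 against 13.5 in ASPCs.

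Of the 13 receptor and co-receptor genes measured in the cell source comparisons, 4 were at least 2-fold lower in DFAT cells in iWAT and 5 in eWAT. The shares over all genes were 5.18% in iWAT and 6.67% in eWAT. *Fzd2* had 35.0 CPM in iWAT_DFAT, 19.8 in eWAT_DFAT, 93.3 in iWAT_ASPC and 80.0 in eWAT_ASPC, and *Fzd4* and *Fzd5* had the same direction. *Ror1*, the *Wnt5a* co-receptor, had 19.5, 60.7, 102.3 and 277.2 CPM in the same order, lower in DFAT cells of both depots and lower in the inguinal library of both sources. *Ror2* was past 2-fold higher in iWAT_DFAT than in iWAT_ASPC, at 51.8 against 23.6 CPM. *Lrp6* lay between 47.2 and 77.2 CPM and within 2-fold in every comparison.

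All 15 transduction genes measured, among them *Ctnnb1* (β-catenin), *Gsk3b* and *Apc*, were within 2-fold in the ASPC comparison and in both cell source comparisons. Most genes of any kind were too: 2.94% to 9.91% of all genes were past 2-fold higher and 3.94% to 6.67% lower. *Tcf7l2* and *Bcl9l* were at least 2-fold higher in iWAT_DFAT than in eWAT_DFAT, against 8.29% of all genes. Of 7 target genes measured, 3 were at least 2-fold lower in DFAT cells in iWAT (*Ccnd1*, *Ccn4* and *Ccn5*) and 3 in eWAT (*Nkd1*, *Ccn4* and *Ccn5*). The shares over all genes were 5.18% in iWAT and 6.67% in eWAT. The cyclin gene *Ccnd1* went the other way in eWAT, at 105.4 CPM in eWAT_DFAT against 45.5 in eWAT_ASPC, beside 86.2 in iWAT_DFAT against 178.95 in iWAT_ASPC. *Ccn4*, also known as Wisp1, had 36.7 CPM in iWAT_DFAT and 28.6 in eWAT_DFAT against 244.4 in iWAT_ASPC and 202.9 in eWAT_ASPC, and *Ccn5* had 187.3 and 16.9 against 635.7 and 497.7 CPM. *Nkd1* had 33.5 CPM in eWAT_ASPC and 5.11 to 8.74 elsewhere. *Axin2*, a widely used readout of β-catenin signalling named here although it was under 5 CPM, had 0.29 to 0.41 CPM.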

How the data were processed

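UMI counts per gene and barcode of 4 libraries, 1 per condition, were deposited by the authors as made by Cell Ranger (7.0.0 in the submitters' processing notes, 7.1.0 in the file headers of 3 libraries and 4 in that of iWAT_ASPC) against mm10. The Methods count intron reads. In the iWAT_ASPC over eWAT_ASPC comparison, the longest 10% of genes had a median log2 ratio of 0.15 against 0.05 for all genes, and in the iWAT_DFAT over iWAT_ASPC comparison 0.34 against 0.09; between the DFAT libraries, which share a header version, it was 0.35 against 0.09. The part of the header version in these values was not tested. The CellBender, DoubletFinder and Harmony steps of the Methods come after these files and were not applied. The sources state a minimum of 500 UMIs per cell; 5000 was used here, and 500 as an alternative.

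Counts were summed over the cells of a library and divided by 1000000 UMIs of those cells (CPM). Levels carry exact Poisson, shares exact Clopper-Pearson and ratios exact conditional binomial 95% intervals. Called genes were at least 2-fold apart with 5 CPM or more in the higher library; no test was made, since a condition was 1 library. Thinning drew 5000 UMIs per cell without replacement. Doublets stayed in: Scrublet at its own threshold called 1 to 5 cells per library, and 334 to 466 were removed as an alternative. Between 185 and 228 barcodes per library with over 7500 genes were left out. The named genes are the 10 members, pathway genes at 5 CPM or more, the 2 genes most like each member at 20 CPM or more, and, chosen after their values were seen, genes that differed with *Dkk2* or *Sfrp2* counts per cell. The members, lists and gates were chosen with earlier results of these data known. Stromal cells past no other gate exclude cells past the endothelial, mesothelial, immune, pericyte and adipocyte gates and past a further gate that is not reported here. Scripts were tested on simulated counts. Positions are from GENCODE M21 (GRCm38), promoters from RefSeq (GRCm38.p6). Calculations used scanpy 1.11.5, scipy 1.17.1, pandas 2.3.3 and numpy 2.4.6 under Python 3.11.15, with figures from matplotlib 3.10.9.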

Additional observations from a re-analysis of the deposited data

Results flagged for a closer look

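*Sfrp2* stood out because the same contrast pointed in opposite directions. The log2 ratio of iWAT over eWAT was 4.35 in DFAT cells and -3.59 in ASPCs, and that of DFAT cells over ASPCs was 6.26 in iWAT and -1.67 in eWAT. With 1 library in each condition the difference between these contrasts was not tested. Among stromal cells past no other gate the ASPC depot ratio was -1.98 and the epididymal ratio of DFAT cells over ASPCs was -0.03, so that only the depot inversion remained past 2-fold in such cells.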

How the results depend on the processing

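Of 40 member ratios, 28 had 5 CPM or more in the higher library and 21 of these were past 2-fold; 19 of the 21 stayed past it in the same direction under all 9 alternatives that gave a ratio (500 UMIs, no gene limit, 20% mitochondrial UMIs, doublets removed, stromal cells past no other gate, free RNA subtracted, mean of CPM per cell, median-ratio size factors, gene length). The 2 exceptions were *Sfrp2* in eWAT_DFAT over eWAT_ASPC, at -0.03 in stromal cells past no other gate, and *Wnt5b* in iWAT_DFAT over eWAT_DFAT, at 0.95 after correction for gene length. Members lower in iWAT_DFAT than in eWAT_DFAT, 1 as reported, became 4 at 1.5-fold (9.1% of all genes), 0 by the mean of CPM per cell, where *Frzb* fell under 5 CPM, and 3 with gene length. At 1.5-fold the pathway genes higher in iWAT_DFAT than in eWAT_DFAT were 13 (17.6% of all genes) and those lower 3 (9.1%), those higher in iWAT_ASPC than in eWAT_ASPC 5 (7.25%), in iWAT_DFAT than in iWAT_ASPC 5 (18.4%) and in eWAT_DFAT than in eWAT_ASPC 4 (15.0%). With a minimum of 20 CPM, 1 was higher in iWAT_DFAT than in iWAT_ASPC (10.0% of all genes). The score ratios depended more on the cells taken. With the highest and lowest 10% of cells, 62 left their counting interval and 55 stayed within it. With 25% of stromal cells past no other gate, 21 left it, 97 stayed and 1 was reversed. The 25% of cells by contractile score in eWAT_ASPC gave a *Dkk2* log2 ratio of -1.06 over all cells and 0.23 in stromal cells past no other gate, an alternative chosen after seeing the data. No paired analysis was possible because each condition was 1 library, and no library could be left out. Free RNA, doublets and culture-to-culture variation limit all values, the last by an unknown amount.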

Other observations

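Stromal cells of eWAT_ASPC with 3 or more *Sfrp1* UMIs (4303 cells) and with none (722 cells), chosen after seeing the data, differed in *Igfbp4*, at 376.5 against 108.1 CPM, in *Aldh1a2*, a retinoic acid synthesis gene, at 22.3 against 6.10, and in *Rspo3*, at 64.6 against 19.0. Lower in the former were the skeletal actin gene *Acta1*, at 117.4 against 246.2 CPM, and *Ankrd1*, at 221.5 against 391.7.

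Stromal cells of iWAT_ASPC with 3 or more *Wnt5a* UMIs (1335 cells) and with none (2687 cells) were set side by side in the same way. *Megf10* had 56.7 against 30.0 CPM and *Mmp3* 33.1 against 17.9, while the heparin-binding growth factor gene *Ptn* had 19.9 against 65.7 CPM and *Dlk1*, a preadipocyte gene, 9.52 against 20.6. Their median depths were 31119 and 22240 UMIs, and the part of depth in these differences was not tested.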
